A study of Mus musculus with 8 samples.

Results

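The 40 genes described here encode the protein-folding machinery of the cell and the sensors that control it in the endoplasmic reticulum (ER). They were picked by symbol as chaperones and genes of the unfolded protein response (UPR), with earlier results of these data known, out of 48321 gene symbols in the deposited tables, and all 40 were among the 12597 genes that passed the filter on low counts. RNA was sequenced from splenic CD8+ T cells of C57BL/6 mice at day 0 and, after in vitro culture with stimulation, at day 5. Each of the 4 groups (WT day 0, KO day 0, WT day 5 and KO day 5) held 2 libraries. The series describes the mice as *Satb1* F/F; E8I-cre, that is, with floxed alleles of the chromatin organiser SATB1 and a Cre recombinase driven by an element active in the CD8 lineage. Genotypes were labelled only WT or KO, and neither the genotype of the WT mice nor the agents in the culture medium were given in the labels. The labels did not say whether the 2 libraries of a group came from separate mice, so p-values measure only the spread between these libraries, which may be technical.

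Newly made proteins fold with the help of chaperones, of which each compartment has its own set. In the ER lumen, BiP and GRP94 bind unfolded chains, calnexin and calreticulin bind glycoproteins, and protein disulfide isomerases join cysteines. When unfolded protein accumulates there, the membrane sensors IRE1, PERK and ATF6 start the UPR, which raises chaperone and degradation genes through XBP1, ATF6 and ATF4. In the cytosol, HSP70, HSP90 and the CCT ring, a chaperonin that folds actin and tubulin, do this work, and mitochondria use HSP60 with its lid HSP10. T cells enlarge and make much new protein after stimulation, and XBP1 is best known in lymphocytes for its part in antibody-secreting plasma cells.

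Gene counts per library ranged from 4170126 to 11117971, and the members together held 1.04% to 1.90% of them. The targeted gene checked the labels at 1 time point only. Levels are CPM, that is, counts scaled to a common library size after TMM, edgeR's trimmed mean scaling between libraries. *Satb1* was at 97.8 and 91.6 CPM in WT and 144 and 125 CPM in KO at day 0, and 96.5 and 116 CPM in WT and 56.5 and 62.3 CPM in KO at day 5. At day 5 the libraries labelled KO were the lower ones, with a log2 difference of -0.84 (FDR = 0.0162). At day 0 the libraries labelled KO were the higher ones, against the label, with a log2 difference of 0.51 (FDR = 0.125), so KO below means the libraries labelled KO. Gene counts do not show which exons were deleted. CD8 T cell markers (6 genes) summed to 11210 to 12660 CPM at day 0 and 8458 to 9196 CPM at day 5. Among them *Cd8b1* and *Cd3e* fell with culture in both genotypes, with log2 fold changes of -1.64 and -1.36 for *Cd8b1*. *Cd8a* fell in WT (-0.87, FDR = 2.98e-05) and did not pass the test in KO (-0.21, FDR = 0.112). *Cd2* rose in both, by 0.35 and 0.30, and *Cd3d* and *Cd3g* passed in neither. *Cd8a* was higher in KO than in WT at day 5, by 0.60 (FDR = 0.0155). The 5 plasma cell markers, of which *Derl3* is itself a gene of ER-associated degradation, summed to 0.686 to 1.93 CPM in every library. Of the B cell markers, *Cd79b* was at 118 to 164 CPM at day 0 and 66.7 to 83.3 CPM at day 5, *Cd79a* and *Pax5* were at 2.26 CPM or less in every library, and *Ms4a1* was at 0.367 CPM or less. The 5 myeloid markers summed to 9.84 to 17.1 CPM at day 0, mostly *Csf1r*, and 34.2 to 72.1 CPM at day 5, mostly *Cd68*, with *Cd14* and *Adgre1* near 0. The 3 NK cell markers summed to 10.7 to 17.3 CPM and then 37.5 to 54.2 CPM, mostly *Eomes*, the 3 CD4 T cell markers to 1.36 to 6.26 CPM, and the 4 red cell markers to at most 0.905 CPM. Their part in the results was not tested.

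With culture the members rose more often than they fell, and changes ran in both directions in some classes. From day 0 to day 5 in WT cells, 18 of the 40 members rose and 5 fell at a false discovery rate (FDR, Benjamini-Hochberg adjusted p of edgeR's quasi-likelihood test) under 0.05. These were 45% and 12.5% of the members, whereas 24.7% of all 12597 tested genes rose and 23.6% fell. In KO cells 19 members rose (47.5%) and 8 fell (20%), beside 26.2% and 24% of all tested genes. The median log2 fold change of the members was 0.46 in WT and 0.52 in KO, whereas over all tested genes it was -0.04 and -0.05. Of the members, 17 rose and 4 fell in both genotypes, 2 were called in WT alone, 6 were called in KO alone, and 38 had the same sign in both. Of all tested genes 20.5% rose and 17.3% fell in both, 10.3% were called in WT alone, 12.3% in KO alone, and 83.7% had the same sign. No difference between the genotypes in the culture response passed the test for any member, as given below. In bulk RNA, fewer cells of a type and less RNA per cell cannot be told apart.

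Alternative settings are named beside the members whose call they ended or made, other than a 2-fold minimum, which was applied to the counts of members alone and left 11 of 23 calls in WT (27.5% of the members, beside 29.9% of all tested genes) and 12 of 27 in KO (30%, beside 31%). Besides other scalings, filters and tests, they were a replicate block (the replicate number as a term in the fit) and, added after the data were seen, an offset for GC content and exon length. Scaling by library totals in place of TMM shifted the median log2 fold change over all tested genes by -0.14 (WT) and -0.18 (KO). Under it 15 members rose and 7 fell in WT, which is 55% of the members beside 49.4% of all tested genes, and 15 rose and 8 fell in KO, 57.5% beside 53.1%. Fewer members fell in WT without WT day 0 replicate 2 or WT day 5 replicate 2. In KO, fewer fell without KO day 5 replicate 2, KO day 5 replicate 1 or KO day 0 replicate 2. In each of these fits a smaller share of all tested genes was called as well, counting both directions. Over the exclusions of single libraries, the median log2 fold change of the members ran from 0.31 to 0.64 in WT and 0.42 to 0.60 in KO. Each exclusion leaves 1 group with a single library, which is then assumed to vary like the other groups, here and wherever such an FDR is given.

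**Figure D1:**
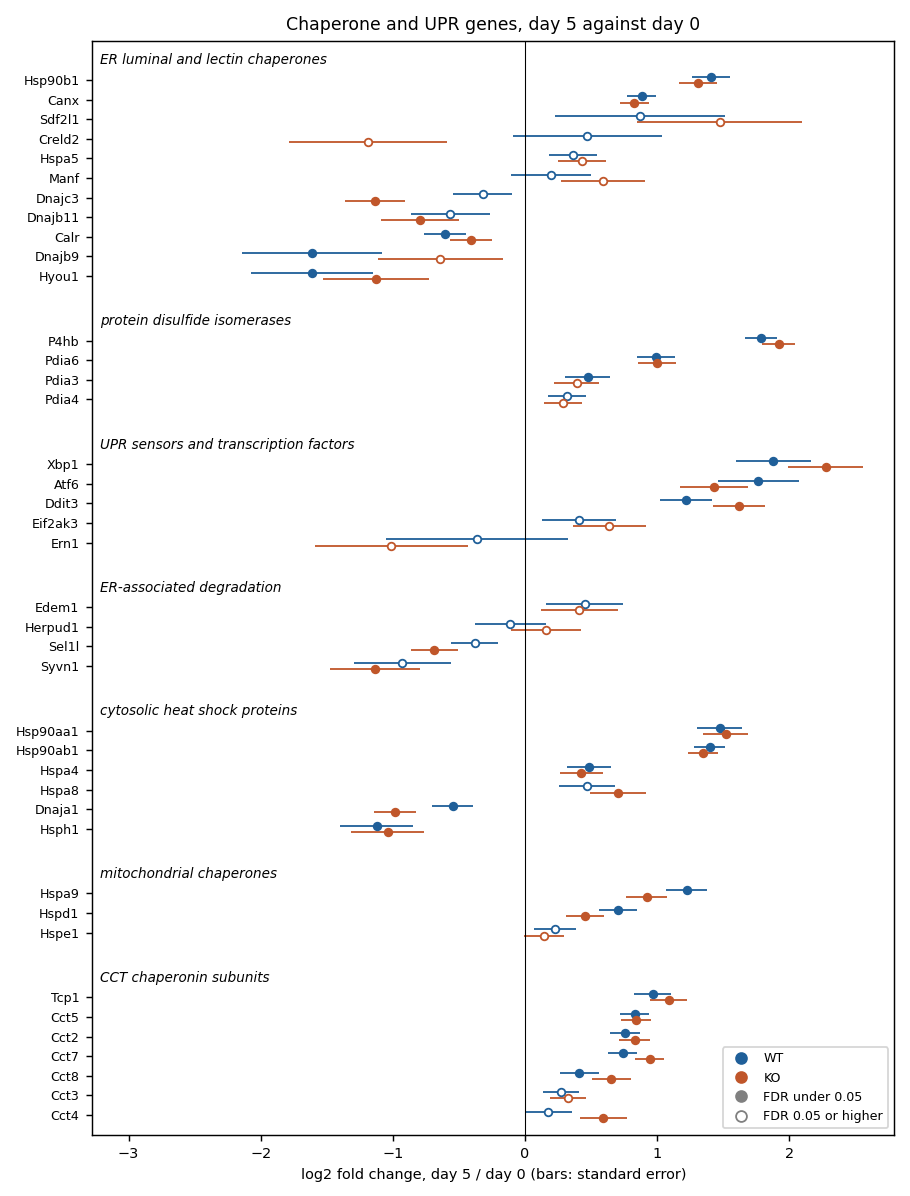
Log2 fold change from day 0 to day 5 for each of the 40 members, with WT in blue and KO in orange, grouped by function; bars are standard errors and filled symbols have FDR under 0.05. Point estimates for genes of the CCT ring and the disulfide isomerases all lie to the right of 0, whereas the ER chaperones and the cytosolic heat shock genes fall on both sides.

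The summed level of the members was higher after culture in both genotypes. It was 10698 and 11981 CPM in WT and 9947 and 9781 CPM in KO at day 0, and 20751 and 16968 CPM in WT and 17312 and 16814 CPM in KO at day 5. All 4 day 5 libraries lay above all 4 day 0 libraries, and the ratio of means was 1.66 in WT and 1.73 in KO. A few genes set this sum: *Hsp90ab1*, *Hspa5*, *Hspa8*, *Cct5* and *Hsp90b1* held 49.1% to 55.7% of the members' CPM in each library, and 9 members stayed under 25 CPM in all of them.

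By class, the ratio of day 5 to day 0 means was highest for the 5 UPR sensors and factors, at 2.38 in WT and 2.90 in KO. The 4 disulfide isomerases followed at 2.02 and 2.002, and the 6 cytosolic heat shock genes at 1.83 and 1.88. Ratios were 1.60 and 1.76 for the 7 CCT subunits, 1.59 and 1.61 for the 11 ER chaperones, whose median log2 fold change per gene was 0.20 in WT and -0.41 in KO, and 1.65 and 1.40 for the 3 mitochondrial chaperones. The 4 genes of ER-associated degradation stood at 1.13 and 1.17, and for them the day 0 and day 5 libraries overlapped in both genotypes.

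**Figure D2:**
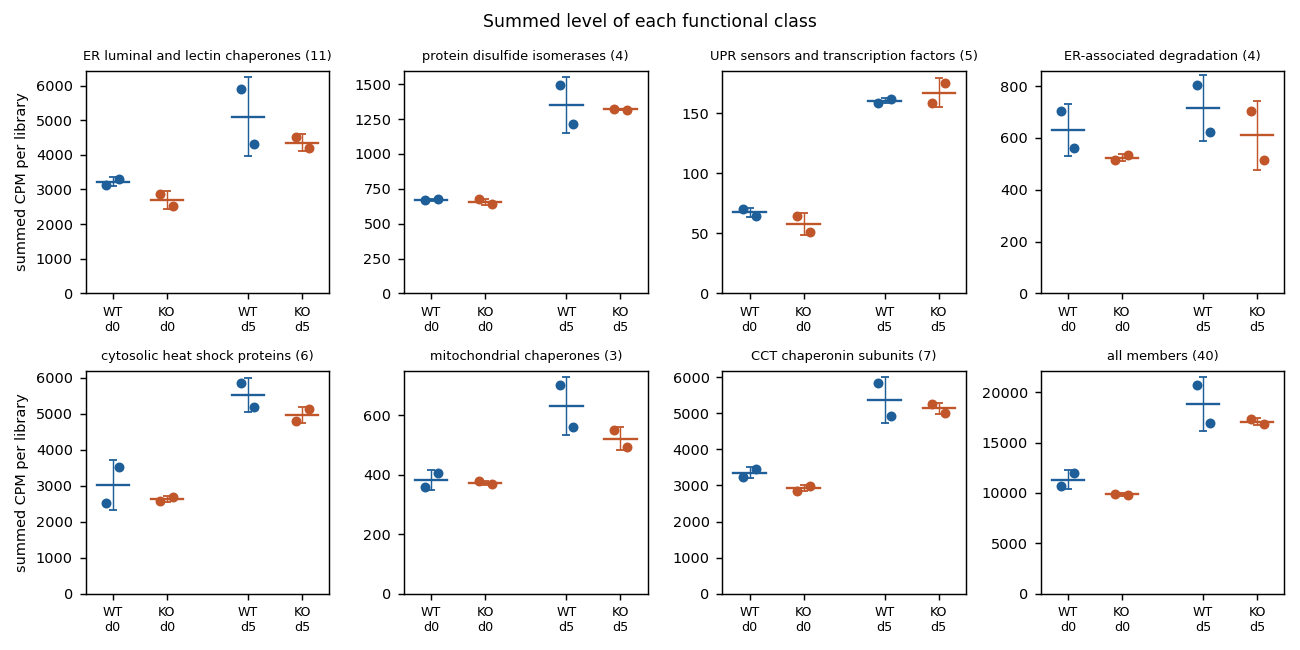
Summed CPM of each functional class in every library (points), with the mean and SD of the 2 libraries of a group; the number of genes is in brackets and each axis starts at 0. Day 5 lies above day 0 in every panel except that of ER-associated degradation, where libraries of the 2 days overlap.

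Among the UPR sensors and transcription factors, *Atf6*, *Xbp1* and *Ddit3* rose in both genotypes and *Ern1* and *Eif2ak3* did not pass the test in either. *Xbp1*, the transcription factor whose mRNA IRE1 cuts to switch it on, was at 7.33 and 10.2 CPM in WT and 5.32 and 7.16 CPM in KO at day 0, and 38.98 and 24.6 CPM in WT and 32.01 and 27.1 CPM in KO at day 5. All day 5 libraries were above all day 0 libraries, and the log2 fold change was 1.88 (SE 0.29, FDR = 0.000161) in WT and 2.28 (SE 0.28, FDR = 2.97e-05) in KO. Gene counts do not separate spliced from unspliced *Xbp1*, which was not analysed here. *Atf6*, the sensor that is itself cut to release a transcription factor, was at 4.29 and 2.71 CPM in WT and 8.06 and 6.97 CPM in KO at day 0, and 11.99 and 12.3 CPM in WT and 19.3 and 21.6 CPM in KO at day 5. Its levels were low but separated in full by day and by genotype, with culture log2 fold changes of 1.76 (SE 0.31, FDR = 0.000455) in WT and 1.43 (SE 0.26, FDR = 0.000575) in KO.

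*Ddit3*, which encodes CHOP, the factor induced downstream of PERK and ATF4, was at 48.3 and 39.3 CPM in WT and 38.8 and 27.9 CPM in KO at day 0, and 92.9 and 112 CPM in WT and 92.5 and 115 CPM in KO at day 5. It rose by 1.22 (SE 0.20, FDR = 0.000273) in WT and 1.62 (SE 0.20, FDR = 2.27e-05) in KO on the log2 scale, with no overlap between days. *Eif2ak3*, which encodes PERK, was at 8.41 and 11.5 CPM in WT and 7.98 and 7.52 CPM in KO at day 0, and 13.9 and 12.3 CPM in WT and 13.98 and 10.2 CPM in KO at day 5. Day 5 was higher than day 0 in each genotype, at log2 fold changes of 0.41 (SE 0.28, FDR = 0.254) and 0.64 (SE 0.28, FDR = 0.0721), and these passed the threshold only under the GC and length offset (FDR = 0.0412 in WT and 0.0274 in KO). *Ern1*, which encodes IRE1 alpha, was near the lower limit of these libraries, at 1.97 and 1.13 CPM in WT and 4.12 and 1.65 CPM in KO at day 0, and 1.23 and 1.20 CPM in WT and 1.29 and 1.70 CPM in KO at day 5. Its libraries overlapped between days, and the log2 fold changes were -0.36 (SE 0.69, FDR = 0.691) and -1.01 (SE 0.58, FDR = 0.165).

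Per length of annotated exon, *Ddit3* had the highest mean level of these 5 genes in WT and KO at day 5, at 59.8 and 60.6 CPM per kb, and *Ern1* the lowest, at 0.149 and 0.183 CPM per kb. *Eif2ak3* stood at 2.18 and 2.01, *Atf6* at 1.31 and 2.21, and *Xbp1* at 9.78 and 9.10 CPM per kb. For comparison among ER chaperones on the same scale, *Hspa5* stood at 510.2 and 409 CPM per kb.

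**Figure D3:**
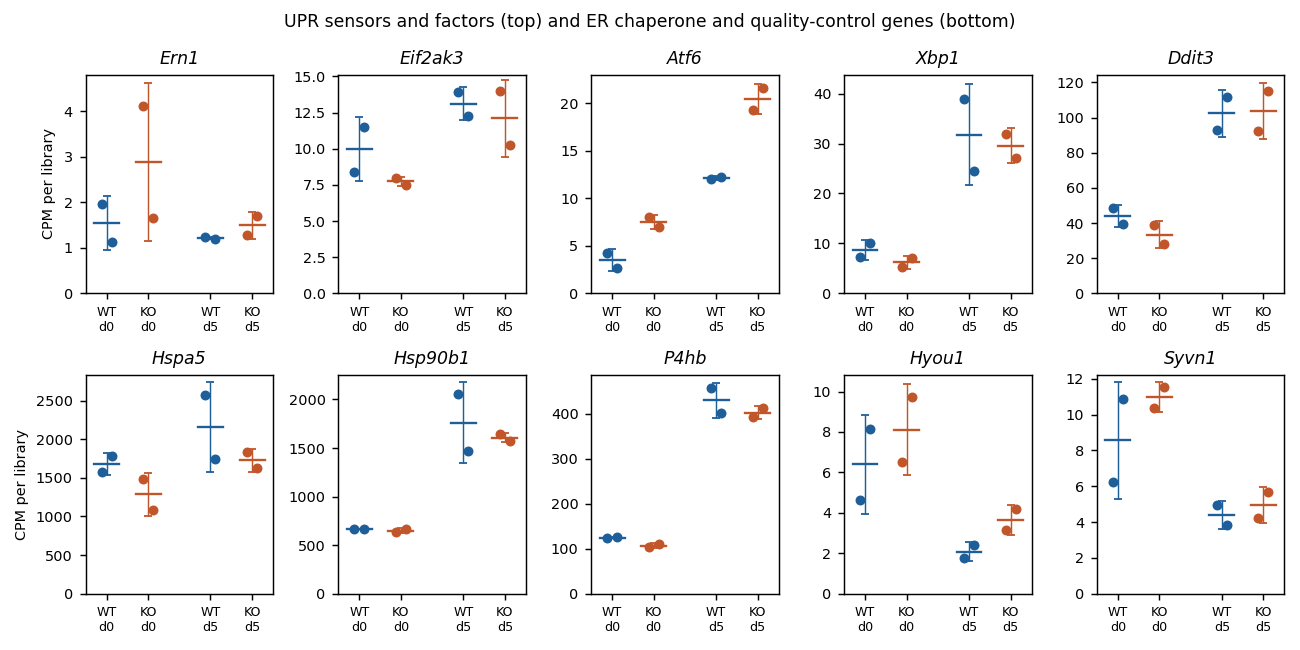
CPM in every library for the 5 UPR sensors and factors (top row) and for 5 ER folding and degradation genes (bottom row), with the mean and SD of each group of 2; each panel has its own axis from 0. *Atf6*, *Xbp1* and *Ddit3* separate by day, *Hsp90b1* and *P4hb* lie higher at day 5 in every library, and *Hyou1* and *Syvn1* are lower at day 5.

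The ER chaperones moved in opposite directions. In WT, *Hsp90b1* and *Canx* rose and *Calr*, *Hyou1* and *Dnajb9* fell. In KO, *Hsp90b1* and *Canx* rose and *Calr*, *Hyou1*, *Dnajb11* and *Dnajc3* fell. *Hsp90b1*, which encodes GRP94, was at 667 and 663 CPM in WT and 631 and 667 CPM in KO at day 0, and 2055 and 1468 CPM in WT and 1639.8 and 1572 CPM in KO at day 5. It rose by 1.41 (SE 0.14, FDR = 5.57e-06) in WT and 1.31 (SE 0.14, FDR = 9.26e-06) in KO on the log2 scale, and no change of scaling, filter, test or library ended either call. *Canx*, which encodes calnexin, was at 509 and 483 CPM in WT and 437 and 448 CPM in KO at day 0, and 965 and 865 CPM in WT and 795 and 776 CPM in KO at day 5. Its log2 fold changes were 0.88 (SE 0.11, FDR = 3.20e-05) and 0.83 (SE 0.11, FDR = 5.05e-05), again with no overlap between days.

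*Calr*, which encodes the soluble partner of calnexin, moved the other way. It was at 262 and 262 CPM in WT and 210.3 and 224 CPM in KO at day 0, and 202 and 142 CPM in WT and 177 and 150.2 CPM in KO at day 5, so that every day 5 library was below every day 0 library. Its log2 fold changes were -0.61 (SE 0.16, FDR = 0.00778) and -0.41 (SE 0.16, FDR = 0.0494). The WT call was lost without WT day 5 replicate 2 (FDR = 0.0749). The KO call was lost without WT day 0 replicate 1, WT day 0 replicate 2, KO day 0 replicate 1, KO day 0 replicate 2, KO day 5 replicate 1 or KO day 5 replicate 2 (FDR = 0.0742 to 0.310) and under DESeq2 size factors or DESeq2 (FDR = 0.0694 to 0.0699). *Hspa5*, which encodes BiP, the main HSP70 of the ER, had the second highest CPM summed over the libraries and did not pass the test. It was at 1578 and 1784 CPM in WT and 1485 and 1085 CPM in KO at day 0, and 2574 and 1741 CPM in WT and 1835 and 1623 CPM in KO at day 5, and in WT the lower day 5 library lay below the higher day 0 library. The log2 fold changes were 0.36 (SE 0.18, FDR = 0.121) and 0.43 (SE 0.18, FDR = 0.0677). It was called in WT without KO day 0 replicate 2 or WT day 5 replicate 2 (FDR = 0.00833 to 0.0497) and under no filter on low counts (FDR = 0.0351), whereas without WT day 5 replicate 1 the log2 fold change was 0.075 (FDR = 0.760). In KO it was called without KO day 0 replicate 1, WT day 5 replicate 1 or WT day 5 replicate 2 (FDR = 0.0185 to 0.0209) and under no filter on low counts, only the 4 libraries of the comparison, the replicate block or DESeq2 (FDR = 0.0118 to 0.0404).

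*Hyou1*, which encodes the BiP nucleotide exchange factor GRP170, was scarce at 4.65 and 8.14 CPM in WT and 6.52 and 9.73 CPM in KO at day 0, and 1.76 and 2.41 CPM in WT and 3.13 and 4.17 CPM in KO at day 5. It fell in both genotypes, with log2 fold changes of -1.61 (SE 0.46, FDR = 0.0115) and -1.13 (SE 0.40, FDR = 0.0329). The WT call was lost without WT day 0 replicate 2 or WT day 5 replicate 1 (FDR = 0.0897 to 0.104) and under the GC and length offset (FDR = 0.0612). The KO call was lost without KO day 0 replicate 2, KO day 5 replicate 1 or KO day 5 replicate 2 (FDR = 0.0727 to 0.188) and under DESeq2 or the GC and length offset (FDR = 0.0948 to 0.0970). *Dnajb9*, an ER co-chaperone of BiP, was at 4.29 and 7.46 CPM in WT and 6.26 and 3.67 CPM in KO at day 0, and 2.65 and 0.964 CPM in WT and 3.49 and 3.03 CPM in KO at day 5, and had log2 fold changes of -1.61 (SE 0.53, FDR = 0.0240) and -0.64 (SE 0.47, FDR = 0.276). The WT call was lost without WT day 0 replicate 2 or WT day 5 replicate 2 (FDR = 0.155 to 0.175). *Dnajb11* encodes the ER HSP40 co-chaperone ERdj3, *Sdf2l1* its partner and *Manf* a small stress-induced protein of the lumen. Their log2 fold changes in WT and KO were -0.57 and -0.79 for *Dnajb11*, 0.87 and 1.47 for *Sdf2l1*, and 0.20 and 0.59 for *Manf*. The WT value of *Manf* turned to -0.45 without WT day 5 replicate 1 and was 0.66 without WT day 5 replicate 2. The fall of *Dnajb11* in KO (FDR = 0.0399) was lost without KO day 0 replicate 1, KO day 0 replicate 2, KO day 5 replicate 1 or KO day 5 replicate 2 (FDR = 0.0706 to 0.214) and under DESeq2 (FDR = 0.0858). In WT *Dnajb11* was called without WT day 5 replicate 1 (FDR = 0.0299). In KO, *Sdf2l1* was called under the edgeR 4 form of the test (FDR = 0.0484), *Manf* without WT day 5 replicate 1 or WT day 5 replicate 2 (FDR = 0.0472 to 0.0498), and *Creld2*, another ER protein, under the GC and length offset (FDR = 0.0471).

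The promoters of the ER chaperones are shown because most of those with a window held an element that was rare among all promoters. The ER stress response element (ERSE), which ATF6 binds together with the CCAAT factor NF-Y, was searched as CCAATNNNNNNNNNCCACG on both strands of RefSeq promoter windows (GRCm38.p6, from 250 bases before to 50 after each start). Of 32851 windows 39 held it (0.119%), while its first letters alone, the CCAAT box, were in 37.4%. Windows were found for 32 members, and not for *Hsp90aa1*, *Hsp90ab1*, *Manf*, *Cct4*, *Hyou1*, *Hspa8*, *Hspa9* and *Atf6*. Of the 32, 8 held it: *Calr*, *Canx*, *Creld2*, *Dnajc3*, *Hsp90b1*, *Hspa5*, *Pdia6* and *Syvn1*. Of these, 6 belong to the 9 ER chaperones with a window. None of the cytosolic, mitochondrial and CCT genes with a window held it, nor did any of the 4 UPR sensors and factors with one. Of 54 other pathway genes with a window 1 held it, *Derl3*. A match is a run of letters, and binding was not measured here. The matches follow, each 5′ to 3′ on the strand that reads CCAAT first, with the fixed letters in capitals and the free spacer in lower case; *Hsp90b1* held 2.
Calr: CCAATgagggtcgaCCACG
Canx: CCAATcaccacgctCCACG
Creld2: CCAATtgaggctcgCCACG
Dnajc3: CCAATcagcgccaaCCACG
Hsp90b1: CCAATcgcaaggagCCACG
Hsp90b1: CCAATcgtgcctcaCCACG
Hspa5: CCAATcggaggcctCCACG
Pdia6: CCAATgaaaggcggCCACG
Syvn1: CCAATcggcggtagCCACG

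The match lay 65 bases before the start in *Hspa5*, 44 in *Syvn1*, 98 in *Pdia6*, 105 in *Dnajc3*, 126 in *Creld2*, 145 in *Canx* and 162 in *Calr*, and 212 and 107 in *Hsp90b1*, counted from the first base of the match along the gene's strand. The 250 bases before the start are printed for 3 of these genes, which differed in their response to culture, with the ERSE in capitals: *Hspa5* (chr2:34771840-34772089, plus strand), *Hsp90b1* (chr10:86705445-86705694, minus strand) and *Syvn1* (chr19:6046326-6046575, plus strand).
Hspa5: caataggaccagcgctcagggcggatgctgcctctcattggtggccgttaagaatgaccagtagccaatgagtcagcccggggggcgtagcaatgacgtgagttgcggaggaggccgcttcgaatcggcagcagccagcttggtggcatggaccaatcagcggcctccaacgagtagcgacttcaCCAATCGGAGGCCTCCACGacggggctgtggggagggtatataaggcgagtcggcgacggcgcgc
Hsp90b1: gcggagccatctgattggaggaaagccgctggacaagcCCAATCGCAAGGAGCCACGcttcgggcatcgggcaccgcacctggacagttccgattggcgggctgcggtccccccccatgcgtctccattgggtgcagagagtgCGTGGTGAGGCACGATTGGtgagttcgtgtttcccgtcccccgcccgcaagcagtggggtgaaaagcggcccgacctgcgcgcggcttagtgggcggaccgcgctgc
Syvn1: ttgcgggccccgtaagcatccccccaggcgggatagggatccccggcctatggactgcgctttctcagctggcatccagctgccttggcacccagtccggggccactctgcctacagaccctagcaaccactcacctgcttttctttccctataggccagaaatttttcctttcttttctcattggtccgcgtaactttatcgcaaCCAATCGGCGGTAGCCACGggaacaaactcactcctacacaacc

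Genes with this element did not share a direction, and neither did the other members with a window. Of the 8, 3 rose in WT (*Hsp90b1*, *Canx* and *Pdia6*) and 1 fell (*Calr*), with log2 fold changes from -0.93 to 1.41 and a median of 0.42. In KO the same 3 rose and 3 fell (*Calr*, *Dnajc3* and *Syvn1*), with a median of 0.01. Over all tested genes 24.7% rose and 23.6% fell in WT, and 26.2% rose and 24% fell in KO. Of the 24 other members with a window, 11 rose and 3 fell in WT, and 10 rose and 4 fell in KO. Their medians were 0.43 in WT and 0.42 in KO. Among these, the 3 ER chaperones without the element (*Dnajb9*, *Dnajb11* and *Sdf2l1*) had medians of -0.57 and -0.64, with none rising and 1 falling in each genotype. A UPR element searched as TGACGTGG or TGACGTGA was held by 1.12% of all windows and, among members, by that of *Hspa5* alone. The amino acid response element, TGATGNAA, was held by 3.97% of windows and, among members, by that of *Herpud1* alone.

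All 4 disulfide isomerases had higher means at day 5, and 3 rose in WT and 2 in KO. *P4hb*, the founding member of the family, was at 124 and 125 CPM in WT and 103 and 110.5 CPM in KO at day 0, and 457 and 402 CPM in WT and 392 and 413 CPM in KO at day 5. Its log2 fold changes, 1.79 (SE 0.12, FDR = 1.61e-07) in WT and 1.92 (SE 0.12, FDR = 6.96e-08) in KO, had the lowest FDR of any member in each genotype. *Pdia6* was at 316 and 316 CPM in WT and 331 and 285 CPM in KO at day 0, and 712 and 543 CPM in WT and 652 and 578 CPM in KO at day 5, and rose by 0.99 (SE 0.14, FDR = 0.000116) and 0.996 (SE 0.14, FDR = 0.000102) on the log2 scale. The groups did not overlap between days for either gene.

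*Pdia3*, the partner of calnexin and calreticulin, was at 57.6 and 58.1 CPM in WT and 37.7 and 50.8 CPM in KO at day 0, and 83.2 and 77.4 CPM in WT and 59.2 and 55.9 CPM in KO at day 5. Its log2 fold change was 0.47 (SE 0.17, FDR = 0.0347) in WT and 0.39 (SE 0.17, FDR = 0.0727) in KO. The WT call was lost without WT day 0 replicate 1, WT day 0 replicate 2, WT day 5 replicate 1, KO day 5 replicate 1 or KO day 5 replicate 2 (FDR = 0.0528 to 0.124) and under scaling by library totals, no filter on low counts or the GC and length offset (FDR = 0.104 to 0.121). In KO it was called without KO day 0 replicate 2 (FDR = 0.0162). *Pdia4* had the smallest change of the class in WT, at 169 and 176 CPM in WT and 203 and 197 CPM in KO at day 0, and 242 and 189 CPM in WT and 221 and 268 CPM in KO at day 5. Its log2 fold changes of 0.32 (SE 0.15, FDR = 0.0895) and 0.29 (SE 0.14, FDR = 0.113) did not pass the test. It passed in WT without WT day 5 replicate 2 (FDR = 0.0123) and in KO without WT day 5 replicate 1 (FDR = 0.0407).

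None of the 4 genes of ER-associated degradation rose in either genotype, and *Sel1l* and *Syvn1* fell in KO. *Syvn1* encodes HRD1, the ubiquitin ligase of the pathway, and *Sel1l* its adaptor. *Syvn1* was at 6.26 and 10.9 CPM in WT and 10.4 and 11.6 CPM in KO at day 0, and 4.94 and 3.86 CPM in WT and 4.23 and 5.68 CPM in KO at day 5, lower at day 5 in every library. Its log2 fold change was -0.93 (SE 0.36, FDR = 0.0516) in WT and -1.14 (SE 0.34, FDR = 0.0143) in KO. In WT it was called without WT day 0 replicate 1 (FDR = 0.0237) and under scaling by library totals or a filter of 5 CPM in 2 libraries (FDR = 0.0276 to 0.0497), and in KO the call was lost without KO day 5 replicate 1 (FDR = 0.124). *Sel1l* had log2 fold changes of -0.38 (SE 0.18, FDR = 0.0986) and -0.69 (SE 0.18, FDR = 0.00604). It was called in WT under scaling by library totals (FDR = 0.0240), and the KO call was lost without KO day 5 replicate 2 (FDR = 0.0561).

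*Edem1*, which encodes a lectin that hands misfolded glycoproteins to the pathway, was at 395 and 239 CPM in WT and 343 and 232 CPM in KO at day 0, and 529 and 339 CPM in WT and 480.5 and 284 CPM in KO at day 5, and in each of the 4 groups replicate 1 exceeded replicate 2. Its culture log2 fold changes were 0.45 (SE 0.29, FDR = 0.223) and 0.41 (SE 0.29, FDR = 0.259), and with the replicate block the FDR was 0.00631 in WT and 0.0145 in KO. With no filter on low counts it was also called in WT (FDR = 0.0228), whereas its KO fold change turned sign under at least 1 alternative. *Herpud1*, a stress-induced membrane protein of the same complex, was at 249.5 and 266 CPM in WT and 103 and 237 CPM in KO at day 0, and 229 and 248 CPM in WT and 185 and 192 CPM in KO at day 5. One library, KO day 0 replicate 1, stood below the other 7. The culture log2 fold changes were -0.11 (SE 0.27, FDR = 0.761) in WT and 0.16 (SE 0.27, FDR = 0.640) in KO, where it was called without KO day 0 replicate 2 (FDR = 0.000687).

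In the cytosol the 2 HSP90 genes rose and 2 HSP70 partners fell. *Hsp90ab1*, the constitutive form, was at 1094 and 1118 CPM in WT and 1001 and 948 CPM in KO at day 0, and 3219 and 2613 CPM in WT and 2464 and 2493 CPM in KO at day 5. It had the highest CPM of the members at day 5 and rose by 1.40 (SE 0.12, FDR = 9.19e-07) in WT and 1.35 (SE 0.12, FDR = 1.13e-06) in KO on the log2 scale. *Hsp90aa1*, the inducible form, was at 130.4 and 155 CPM in WT and 130.2 and 113 CPM in KO at day 0, and 465 and 326 CPM in WT and 363 and 336 CPM in KO at day 5. It rose by 1.47 (SE 0.17, FDR = 1.59e-05) and 1.52 (SE 0.17, FDR = 1.10e-05), and the ratio of its CPM to that of *Hsp90ab1* ranged from 0.119 to 0.139 at day 0 and from 0.125 to 0.147 at day 5, so that the 2 days overlapped. Of the 50-base windows of annotated *Hsp90aa1* exons, 47.5% occur in other annotated genes, and reads that map to several places were set aside in counting, so its level is uncertain. The same holds for *Hspa8* at 39.4% and *Dnaja1* at 20.6%.

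*Hspa8*, the constitutive HSP70, was at 1008 and 1817 CPM in WT and 1076 and 1286 CPM in KO at day 0, and 1899 and 2009 CPM in WT and 1756 and 2089 CPM in KO at day 5. Its WT day 0 libraries lay further apart than those of any other group, and the log2 fold change was 0.47 (SE 0.21, FDR = 0.0827) in WT and 0.70 (SE 0.21, FDR = 0.0141) in KO. In WT it was called without WT day 0 replicate 2 (FDR = 0.00140) and under no filter on low counts or the replicate block (FDR = 0.00234 to 0.0177), whereas without WT day 0 replicate 1 the log2 fold change was 0.11 (FDR = 0.621). The KO call was lost without KO day 0 replicate 1 or KO day 5 replicate 2 (FDR = 0.0846 to 0.0869) and under scaling by library totals (FDR = 0.0558). *Hspa4*, an HSP110 family member, had log2 fold changes of 0.48 (SE 0.17, FDR = 0.0309) and 0.43 (SE 0.17, FDR = 0.0472). Its WT call was lost without WT day 0 replicate 1, WT day 0 replicate 2, WT day 5 replicate 1 or KO day 5 replicate 1 (FDR = 0.0527 to 0.168) and under scaling by library totals or no filter on low counts (FDR = 0.0988 to 0.151). Its KO call was lost without WT day 0 replicate 1, WT day 0 replicate 2, KO day 0 replicate 1, KO day 0 replicate 2, KO day 5 replicate 1 or KO day 5 replicate 2 (FDR = 0.0622 to 0.236) and under scaling by library totals, no filter on low counts or DESeq2 (FDR = 0.0623 to 0.264).

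*Hsph1*, which encodes HSP110, a nucleotide exchange factor of HSP70, was at 37.4 and 75.1 CPM in WT and 42.6 and 37.3 CPM in KO at day 0, and 27.3 and 23.9 CPM in WT and 20.97 and 17.99 CPM in KO at day 5. It fell in both genotypes, with log2 fold changes of -1.12 (SE 0.28, FDR = 0.00486) and -1.04 (SE 0.28, FDR = 0.00763), and every day 5 library lay below every day 0 library. WT day 0 replicate 2 was the highest library, and the WT call was lost without WT day 0 replicate 2 (FDR = 0.0922). The KO call was lost without KO day 5 replicate 2 (FDR = 0.0633). *Dnaja1*, an HSP40 co-chaperone, was at 220.2 and 300.3 CPM in WT and 293 and 265 CPM in KO at day 0, and 189.6 and 166 CPM in WT and 149.7 and 133 CPM in KO at day 5. It fell in both genotypes, with log2 fold changes of -0.55 (SE 0.16, FDR = 0.0118) and -0.98 (SE 0.16, FDR = 0.000221). Its WT call was lost without WT day 0 replicate 2 or WT day 5 replicate 2 (FDR = 0.0907 to 0.197). The KO call was lost only under the 2-fold minimum. The inducible genes *Hspa1a*, *Hspa1b* and *Hspb1*, which were not members, did not pass the filter on low counts. Windows shared with other genes were not counted for them, and reads that map to several places were set aside. Their level is therefore uncertain.

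Of the mitochondrial chaperones, *Hspa9* and *Hspd1* rose in both genotypes and *Hspe1* did not pass the test. *Hspa9*, the mitochondrial HSP70, was at 55.5 and 56.8 CPM in WT and 48.7 and 59.1 CPM in KO at day 0, and 141 and 121 CPM in WT and 107 and 95.8 CPM in KO at day 5, and rose by 1.22 (SE 0.16, FDR = 3.56e-05) in WT and 0.92 (SE 0.15, FDR = 0.000299) in KO on the log2 scale. *Hspd1*, which encodes HSP60, was at 235 and 279 CPM in WT and 262 and 247 CPM in KO at day 0, and 469.5 and 367 CPM in WT and 366 and 331 CPM in KO at day 5. It rose by 0.70 (SE 0.14, FDR = 0.00148) and 0.45 (SE 0.14, FDR = 0.0191), and the KO call was lost without KO day 0 replicate 2 or KO day 5 replicate 1 (FDR = 0.0795 to 0.126) and under scaling by library totals or the GC and length offset (FDR = 0.0842 to 0.0904). *Hspe1*, which encodes HSP10, the lid of the HSP60 ring, was at 69.2 and 71.9 CPM in WT and 67.1 and 62.2 CPM in KO at day 0, and 91.4 and 73.5 CPM in WT and 75.97 and 67.03 CPM in KO at day 5, and its log2 fold changes were 0.23 (SE 0.16, FDR = 0.251) and 0.14 (SE 0.15, FDR = 0.462). The ratio of *Hspd1* to *Hspe1* CPM was 3.398 to 3.97 in the 4 day 0 libraries and 4.82 to 5.14 in the 4 day 5 libraries, with no overlap between days.

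*Hspd1* and *Hspe1* lie head to head on mouse chromosome 1 (GRCm38; *Hspd1* at chr1:55077835-55088243 on the minus strand and *Hspe1* at chr1:55088132-55091307 on the plus strand) and overlap at their 5′ ends. The sequence before the *Hspe1* start, which lies in windows of both genes, is shown for that reason. A heat shock element, the target of HSF1, was searched as GAANNTTCNNGAA or TTCNNGAANNTTC, which are reverse complements of each other, and was held by 0.603% of all windows. Among members it was held by *Hspd1*, *Hspe1* and *Hsph1*. One of the 2 *Hspd1* windows shares 285 bases with that of *Hspe1*, and 2 overlapping matches lie at the same coordinates in both, between bases 55088059 and 55088076. The 250 bases before the *Hspe1* start (chr1:55087898-55088147, plus strand) read as follows, with both matches in capitals. In the *Hsph1* windows the match lies after the start and is not printed.
Hspe1: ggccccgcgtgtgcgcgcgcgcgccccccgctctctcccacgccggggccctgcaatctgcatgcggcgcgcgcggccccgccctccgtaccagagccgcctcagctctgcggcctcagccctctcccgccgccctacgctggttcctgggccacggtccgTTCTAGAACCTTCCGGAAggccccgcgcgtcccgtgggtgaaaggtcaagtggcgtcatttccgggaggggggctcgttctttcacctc

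The unequal counts of the pair carry a limit from counting, since 42.1% of *Hspd1* and 22.8% of *Hspe1* windows of 50 bases also occur in other annotated genes. The processed pseudogene *Hspd1-ps3* alone had 1682 counts over the 8 libraries, which is 11.3% of the *Hspd1* total. For *Hspa9* the counts at its annotated pseudogene came to 2.97% of its total.

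Most subunits of the CCT ring rose. All 7 subunits among the members had higher means at day 5 in both genotypes, and 5 rose in WT and 6 in KO. *Tcp1*, which encodes CCT alpha, was at 364 and 388 CPM in WT and 348 and 354 CPM in KO at day 0, and 843 and 624 CPM in WT and 774 and 716 CPM in KO at day 5, and *Cct5* at 908 and 1001 CPM in WT and 821 and 853 CPM in KO at day 0, and 1809 and 1580.5 CPM in WT and 1522 and 1474 CPM in KO at day 5. Day 5 libraries lay above day 0 libraries without overlap for both. Their log2 fold changes were 0.97 (SE 0.14, FDR = 0.000115) and 1.09 (SE 0.14, FDR = 4.03e-05) for *Tcp1*, and 0.83 (SE 0.11, FDR = 5.89e-05) and 0.84 (SE 0.11, FDR = 5.02e-05) for *Cct5*. *Cct2* and *Cct7* rose by 0.76 and 0.74 in WT and by 0.83 and 0.94 in KO. *Cct8* rose by 0.41 (SE 0.15, FDR = 0.0362) and 0.65 (SE 0.15, FDR = 0.00274), and the WT call was lost without WT day 0 replicate 1, WT day 0 replicate 2 or WT day 5 replicate 1 (FDR = 0.0911 to 0.214) and under scaling by library totals or the GC and length offset (FDR = 0.113 to 0.320). *Cct3* did not pass, at 0.27 (SE 0.14, FDR = 0.125) and 0.33 (SE 0.14, FDR = 0.0671). In WT it was at 363 and 366 CPM at day 0 and 500 and 379 CPM at day 5. It was called there without WT day 5 replicate 2, the lower day 5 library, at 0.49. In KO it was called without WT day 5 replicate 1 or WT day 5 replicate 2, at 0.355 and 0.333. It was also called in KO under DESeq2 size factors, only the 4 libraries of the comparison, DESeq2 or the GC and length offset (FDR = 0.0274 to 0.0456).

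*Cct4* was at 146 and 179 CPM in WT and 80.04 and 92.5 CPM in KO at day 0, and 150.1 and 217 CPM in WT and 127 and 133 CPM in KO at day 5. The culture log2 fold change was 0.18 (SE 0.18, FDR = 0.437) in WT, where the 2 days overlapped, and 0.59 (SE 0.18, FDR = 0.0147) in KO. In WT it was called without WT day 5 replicate 1 (FDR = 0.0448), and the KO call was lost without KO day 0 replicate 1 or KO day 5 replicate 2 (FDR = 0.0717 to 0.0889) and under scaling by library totals (FDR = 0.0942). Per kb of annotated exon, *Cct4* was the lowest and *Cct5* the highest of the 7 in all 4 groups. These levels were 38.7 against 345 CPM per kb in WT and 20.5 against 303 CPM per kb in KO at day 0, and 43.7 against 613 CPM per kb in WT and 30.9 against 542 CPM per kb in KO at day 5. The ratio of highest to lowest was thus 8.92, 14.7, 14.01 and 17.5. The length takes in every annotated exon of a gene, 4201 bases for *Cct4* and 2766 for *Cct5*. These ratios therefore depend on the annotation. *Cct6a*, a subunit that was not a member, stood at 81.9 CPM per kb in WT and 60.2 in KO at day 0, and 112 in WT and 98.5 in KO at day 5. In the assembled ring the subunits are present in equal number.

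**Figure D4:**
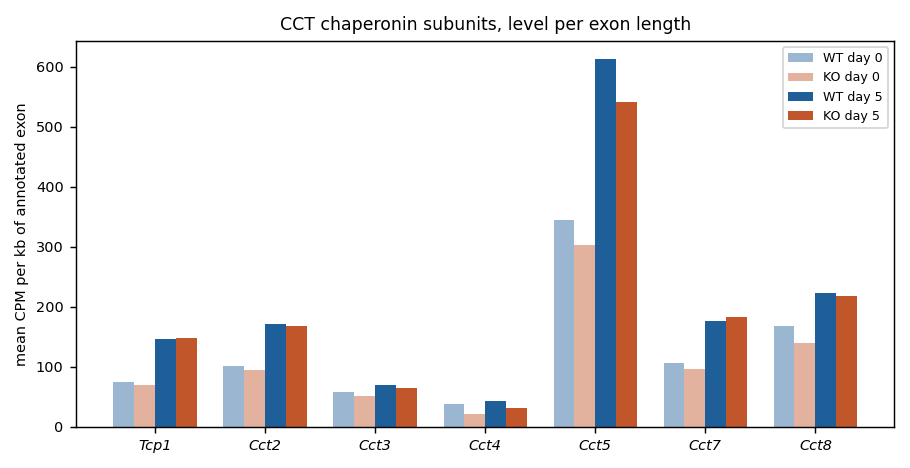
Mean CPM per kb of annotated exon of the 7 CCT subunits among the members in the 4 groups (pale bars for day 0, full bars for day 5; 2 libraries per bar, spread not drawn). *Cct5* is the highest and *Cct4* the lowest of these in each group, and the KO bar of *Cct4* at day 0 is at 20.5 beside 38.7 in WT.

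Other genes of the same pathways were counted from a list of 71 symbols, of which 65 were tested. In WT, 21 (32.3%) rose and 9 (13.8%) fell with culture, with a median log2 fold change of 0.01, beside the 24.7% and 23.6% of all tested genes. In KO 19 (29.2%) rose and 7 (10.8%) fell, with a median of 0.08, beside 26.2% and 24%. The shares over all tested genes are also those to read the shorter lists against. Of the 14 ER folding genes tested, 6 rose and 2 fell in WT and 6 rose and 1 fell in KO, led by *Ero1l*, the oxidase that recharges disulfide isomerases, at 4.09 (SE 0.25, FDR = 5.85e-08) in WT and 3.87 (SE 0.24, FDR = 4.45e-08) in KO. *Ero1l* was at 6.08 and 3.17 CPM in WT and 5.58 and 5.51 CPM in KO at day 0, and 84.3 and 78.1 CPM in WT and 72.8 and 89.7 CPM in KO at day 5, with no overlap between days. *Fkbp2*, an ER prolyl isomerase, rose by 2.04 (SE 0.20, FDR = 3.92e-06) and 2.12 (SE 0.20, FDR = 2.15e-06).

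Of the 9 UPR signalling genes tested, 3 rose and 2 fell in WT, with a median log2 fold change of -0.42, and 3 rose and 4 fell in KO, with a median of -0.68. *Trib3*, a target of ATF4 and CHOP, was at 3.22 and 0.678 CPM in WT and 2.06 and 1.28 CPM in KO at day 0, and 67.4 and 37.8 CPM in WT and 88.8 and 92.8 CPM in KO at day 5, and rose by 4.66 (SE 0.42, FDR = 1.99e-06) and 5.65 (SE 0.40, FDR = 1.70e-07). *Chac1*, a glutathione-degrading enzyme induced by the same factors, had 0 counts in both WT libraries at day 0 and 0 and 3 counts in KO. At day 5 it was at 3.70 and 3.86 CPM in WT and 3.68 and 7.01 CPM in KO. Against a floor of 3 counts per day 0 library, this was at least 6.25-fold higher in WT, where the floor covers counting error only. The other called genes of this list were named after their values were seen. *Atf4*, whose product activates *Trib3* and *Ddit3*, had log2 fold changes of 1.004 (SE 0.13, FDR = 4.57e-05) in WT and 1.16 (SE 0.13, FDR = 1.06e-05) in KO. *Atf6b*, a relative of *Atf6*, had -1.76 (SE 0.42, FDR = 0.00399) and -1.13 (SE 0.39, FDR = 0.0303). *Mbtps1*, which encodes a protease that cuts ATF6, had -1.68 (SE 0.15, FDR = 1.59e-06) and -1.11 (SE 0.14, FDR = 4.01e-05). *Mbtps2*, which encodes the other protease of that step, and *Ppp1r15b*, a phosphatase subunit that acts against PERK, passed the test in KO, at -0.82 (SE 0.25, FDR = 0.0162) and -0.68 (SE 0.26, FDR = 0.0472), and not in WT, at -0.42 (SE 0.26, FDR = 0.195) and -0.56 (SE 0.27, FDR = 0.107).

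In the remaining lists, 1 of 12 further degradation genes fell in WT and none rose, with *Os9*, the one called, at -0.94 (SE 0.19, FDR = 0.00145) and *Herpud2* at -0.68 (SE 0.29, FDR = 0.0733). In KO none fell and 1 rose, *Edem2*, at 0.76 (SE 0.23, FDR = 0.0143). Of 16 cytosolic chaperone genes 4 rose and 2 fell in WT, the latter being the co-chaperone *Dnajb1* at -1.08 (SE 0.28, FDR = 0.00684) and the ubiquitin ligase *Stub1* at -1.03 (SE 0.22, FDR = 0.00188), and in KO 3 rose and 1 fell, *Stub1*, at -0.54 (SE 0.21, FDR = 0.0497). Of 7 mitochondrial genes 3 rose and 1 fell in WT, with *Hscb* at 1.21 (SE 0.20, FDR = 0.000264) and *Trap1*, the mitochondrial HSP90, at 0.79 (SE 0.14, FDR = 0.000651). In KO, *Hscb* and *Trap1* rose, at 1.32 (SE 0.19, FDR = 9.57e-05) and 0.96 (SE 0.14, FDR = 0.000130), and none fell. Of 7 genes of prefoldin, which delivers chains to CCT, and related proteins 5 rose and 1 fell in WT and 4 rose and 1 fell in KO, led in WT by *Pfdn1* at 1.27 (SE 0.16, FDR = 3.97e-05) and *Vbp1* at 1.14 (SE 0.13, FDR = 1.44e-05).

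The comparison of KO with WT asks whether the libraries labelled KO differ in folding genes before and after culture. At day 0, 1 of the 40 members was called, beside 1.8% of all tested genes, and 5 (12.5%) had an unadjusted p under 0.05, beside 13.8% of all tested genes. The member called was *Cct4*, at 146 and 179 CPM in WT and 80.04 and 92.5 CPM in KO at day 0. The 2 KO libraries lay below the 2 WT libraries, and the log2 fold change was -0.92 (SE 0.18, FDR = 0.0230). The call was lost without WT day 0 replicate 1, WT day 0 replicate 2, KO day 0 replicate 1 or KO day 0 replicate 2 (FDR = 0.0582 to 0.233). *Cct4* lies at chr11:22990519-23003780 on the plus strand (GRCm38), and 0.364% of its 50-base exon windows occur in other annotated genes.

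Of the other members at day 0, *Atf6* had the next lowest p. Its KO libraries were the higher ones, with a log2 fold change of 1.09 (SE 0.31, edgeR unadjusted p = 0.00387, FDR = 0.117). *Atf6* lies at chr1:170704674-170867771 on the minus strand (GRCm38), and whether its neighbours differed between genotypes as well was not examined here. *Manf*, an ER protein released under stress, was at 29.7 and 34.6 CPM in WT and 19.1 and 12.3 CPM in KO at day 0, and 49.6 and 23.1 CPM in WT and 25.2 and 23.1 CPM in KO at day 5, and at day 0 differed by -0.999 (SE 0.31, FDR = 0.167). *Herpud1* differed by -0.61 (SE 0.27, FDR = 0.326). With no filter on low counts 3 members were called, *Manf* (FDR = 0.0122) and *Herpud1* (FDR = 0.0190) beside *Cct4*, and 1.26% of the 34404 genes in that fit were called. Without KO day 0 replicate 2, *Herpud1* alone was called (FDR = 0.00141), with KO day 0 then held by replicate 1 alone, the library with the lowest *Herpud1*. Of the 40 members 31 had a log2 fold change under 0, with a median of -0.15, beside a median of -0.0017 and 6326 genes under 0 among the 12597 tested.

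At day 5, no member was called by edgeR, beside 1.63% of all tested genes, and 6 (15%) had an unadjusted p under 0.05, beside 14.1% of all tested genes. DESeq2 called 0 members as well, beside 2.78% of all tested genes. The 2 lowest were *Atf6* and *Pdia3*. *Atf6* was again higher in both KO libraries, by 0.75 on the log2 scale (SE 0.26, edgeR unadjusted p = 0.0127, FDR = 0.189). *Pdia3* was lower in both, with a log2 fold change of -0.48 (SE 0.17, edgeR unadjusted p = 0.0140, FDR = 0.200). *Cct4* had a log2 fold change of -0.50 (SE 0.18, FDR = 0.205) and was called only without WT day 5 replicate 1, at -0.74. That was the WT library nearer to KO, with WT at 150.1 and 217 CPM and KO at 127 and 133 CPM. Here too 31 of the 40 members were under 0, with a median of -0.13, beside 6294 of the 12597 tested genes and a median of 0 over these, but the median was 0.03 without WT day 5 replicate 1 and -0.28 without WT day 5 replicate 2.

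**Figure D5:**
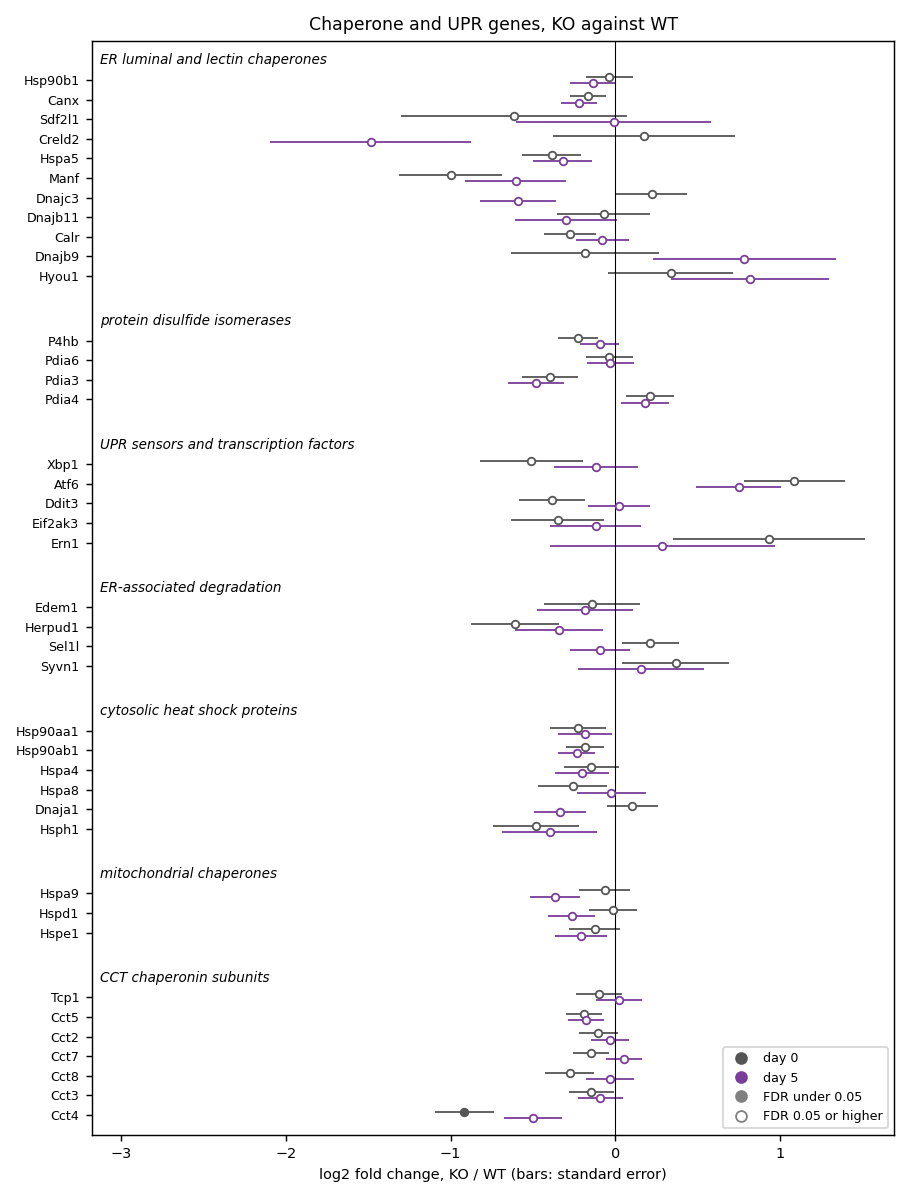
Log2 fold change of KO against WT for each member at day 0 (grey) and day 5 (purple), grouped as before; bars are standard errors and filled symbols have FDR under 0.05. *Cct4* at day 0 is the one filled symbol, at -0.92, and *Atf6* lies to the right of 0 on both days, at 1.09 and 0.75.

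Among the 65 other pathway genes 1 (1.54%) was called at each day, beside 1.8% of all tested genes at day 0 and 1.63% at day 5. *Erp44*, which retains disulfide enzymes in the ER, was lower in KO at day 0, at 48.1 and 50.3 CPM against 87.3 and 94.97 CPM in WT, a log2 difference of -0.89 (SE 0.18, FDR = 0.0255). At day 5 its difference was -0.32 (SE 0.18, FDR = 0.453). *Hspa14*, an HSP70 bound to ribosomes, was lower in KO at day 5, at 348 and 325 CPM against 526 and 465 CPM in WT, a log2 difference of -0.56 (SE 0.12, FDR = 0.0335). At day 0 the difference was 0.02 (SE 0.12, FDR = 0.971).

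The genotype by day interaction tests whether the culture response differed between WT and KO. No member was called by edgeR, beside 0.159% of all tested genes, or by DESeq2, beside 1.14%, and 1 member (2.5%) had an unadjusted p under 0.05, beside 12.4% of all tested genes. That was *Dnajc3*, an ER co-chaperone that inhibits PERK, at 52.9 and 42.96 CPM in WT and 64.6 and 46.8 CPM in KO at day 0, and 36.2 and 40.97 CPM in WT and 30.4 and 20.6 CPM in KO at day 5. Its culture log2 fold change was -0.32 (SE 0.22, FDR = 0.261) in WT and -1.13 (SE 0.23, FDR = 0.00111) in KO, and the difference was -0.81 (SE 0.32, edgeR unadjusted p = 0.0242, FDR = 0.332). *Creld2*, an ER protein with isomerase activity, was next, at 1.25 and 3.84 CPM in WT and 2.40 and 3.30 CPM in KO at day 0, and 3.70 and 3.13 CPM in WT and 1.10 and 1.33 CPM in KO at day 5, with a difference of -1.66 (SE 0.82, edgeR unadjusted p = 0.0660, FDR = 0.441). For *Cct4* the difference was 0.42 (SE 0.25, FDR = 0.535) and for *Atf6* -0.34 (SE 0.40, FDR = 0.802). None of the 65 other pathway genes was called, and 7 (10.8%) had an unadjusted p under 0.05.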

How the data were processed

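RNA of splenic CD8+ T cells was sequenced in 8 libraries (50 base reads, NEBNext Ultra kit, per the labels). The authors deposited 1 table of raw counts by gene symbol per library, not normalized, made per the submitters' processing notes with HISAT2 2.1.0 and HTSeq 0.11.1 on mm10; the annotation and strand setting are not given in the sources used here. Reads assigned to genes made up 21.2% to 24.5% of records and multi-mapped records, which were set aside, 31.8% to 37.4%, so genes with near-identical copies are counted low. The 5 summary lines of the counter were left out of library sizes.

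Groups and replicate numbers came from the sample titles. All 8 libraries entered 1 edgeR 4.0.16 quasi-likelihood fit (R 4.3.3) with TMM factors and the default filter (minimum count 10), which kept 12597 of 48321 genes. P-values were two-sided and adjusted by Benjamini-Hochberg over all of them, and FDR under 0.05 was called. CPM used TMM-scaled library sizes. Variation between libraries of a group came to a common biological coefficient of 15%.

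The members and the lists of other genes were chosen with earlier results of these data known. Values per library were given for the UPR sensors and factors, for the 2 largest and the smallest WT culture change in each other class, for members called in a genotype comparison or the interaction, and for the 2 lowest p-values in each of those; other genes were named when called between genotypes or among the 2 largest WT culture changes of their list. Values of further members were added after they were seen.

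Alternatives were DESeq2 size factors, library totals, no filter, a filter of 5 CPM in 2 libraries, a fit of just the 4 libraries compared, a replicate block, edgeR's newer form of the test, DESeq2 1.42.0, a 2-fold minimum and leaving out each library, all for the members only. Added after the data were seen was a loess offset (span 0.3) on GC and exon length, which 96.9% of tested genes allowed. Exon length, GC and gene positions came from GENCODE M21 (GRCm38), and promoter windows from RefSeq (GRCm38.p6). Level per length is CPM per kb of annotated exon. Shared windows were counted over 50-base pieces of annotated exons. The counts cover sampling of reads only, since molecules were not marked.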

Additional observations from a re-analysis of the deposited data

How the results depend on the processing

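With a 2-fold minimum, 11 members were called in WT culture, 12 in KO culture and 0 between genotypes at day 0. The shares of all tested genes were 29.9%, 31% and 1.18%. With no filter on low counts 3 were called at day 0, beside 1.26% of all genes in that fit. Over the exclusions of single libraries, the count of members called in culture moved both up and down. The share of all tested genes called in culture was lower in every one of them. No member changed sign while called. Among members not called, the fold change turned sign under at least 1 alternative for 4 in WT culture (*Cct4*, *Creld2*, *Ern1* and *Manf*) and 3 in KO culture (*Edem1*, *Herpud1* and *Hspe1*), and signs turned for 14 members at day 0, 20 at day 5 and 26 in the interaction. Apart from the 2-fold minimum, 15 of the 23 members called in WT culture and 17 of the 27 in KO culture passed under every alternative in which they were tested, and the 1 called at day 0 did not. Of those not called, 10 in WT culture, 10 in KO culture, 2 at day 0, 1 at day 5 and 0 in the interaction passed under at least 1 alternative. The median of the members ran over those exclusions from 0.31 to 0.64 in WT culture, 0.42 to 0.60 in KO culture, -0.19 to -0.10 at day 0 and -0.28 to 0.03 at day 5, and was 0.32 and 0.34 in WT and KO culture under library totals. The cause of these differences was not tested. Depth limits *Ern1*, *Sdf2l1* and *Creld2* most, at under 5 CPM.

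The labels do not say that a replicate number marks a shared mouse or day. Deviations of same-numbered libraries correlated at 0.118 between WT day 0 and WT day 5 and at 0.228 between KO day 0 and KO day 5, and between -0.0742 and 0.00438 for the other 4 pairs of groups. With the replicate block 25 members were called in WT culture, 29 in KO culture, 1 at day 0, 0 at day 5 and 0 in the interaction. The shares of all tested genes called were 47.6%, 49.9%, 1.71%, 1.71% and 0.23%. With 2 pairs, the block added *Edem1* in both genotypes, *Hspa8* in WT and *Hspa5* in KO.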
